A study of Mus musculus with 12 samples.

Results

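The let-7 family with miR-98 comprised 9 guide-strand miRNAs on these arrays: let-7a, let-7b, let-7c, let-7d, let-7e, let-7f, let-7g, let-7i and miR-98. They were taken by exact name (mmu-let-7a, mmu-let-7b, mmu-let-7c, mmu-let-7d, mmu-let-7e, mmu-let-7f, mmu-let-7g, mmu-let-7i and mmu-miR-98) among the 650 miRNA names of the array, 611 of them mouse, and all 9 were among the 145 mouse miRNAs tested. The cells were mouse embryonic fibroblasts in culture, of C57BL/6 background, and were wild type for ATF4 (WT) or deficient in it (KO). ATF4 is a transcription factor of the endoplasmic reticulum stress response. The 6 groups were untreated WT, WT given 2 ug/mL tunicamycin for 12 h, WT given it for 24 h, untreated KO, KO given it for 12 h and KO given it for 24 h. Tunicamycin blocks N-linked glycosylation and so causes endoplasmic reticulum stress. Each group had 2 arrays, which the series describes as independent experiments. The labels state neither how the ATF4 deficiency was made nor how many embryos or lines the cells came from, and the array has no Atf4 probe to check the genotype.

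let-7 miRNAs guide Argonaute proteins to messenger RNAs that pair with the seed, the bases near the 5′ end of the miRNA, and lower the output of those messages. The family is known for rising as cells differentiate, for repressing growth-promoting genes such as Hmga2, Ras and Myc family members, and for the block that the protein Lin28 puts on the maturation of its precursors. It is abundant in fibroblasts and other differentiated cells. The study asked which miRNA responses to tunicamycin need ATF4.

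The mature sequences are shown because all members share 1 seed and differ only outside it. Each is printed 5′ to 3′ from RefSeq (build GRCm38.p6), where all 9 members were found, with the seed, bases 2 to 8, in capitals.
let-7a: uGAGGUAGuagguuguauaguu
let-7b: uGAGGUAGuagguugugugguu
let-7c: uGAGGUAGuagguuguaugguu
let-7d: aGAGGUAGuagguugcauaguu
let-7e: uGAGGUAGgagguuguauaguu
let-7f: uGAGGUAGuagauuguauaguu
let-7g: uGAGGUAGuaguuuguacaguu
let-7i: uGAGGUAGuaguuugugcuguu
miR-98: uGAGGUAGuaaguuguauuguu

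All 9 were 22 bases long and carried the seed GAGGUAG. That seed stood at bases 2 to 8 of 11 of the 1679 mature mouse names in the table, or 0.655%. Counted from the 5′ end, with the base of let-7a first, let-7c differed from let-7a only by A19G, let-7e by U9G and let-7f by G12A. let-7b differed by A17G and A19G, let-7d by U1A and U16C, let-7g by G12U and U18C, and miR-98 by G11A and A19U. let-7i stood farthest from let-7a, with G12U, A17G, U18C and A19U. Whether a probe also caught a relative that differs by 1 base was not tested. The near relative miR-202-3p carries GAGGUAU at the same place, which is G8U. It was well above background on 3 arrays and was not tested.

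The hairpins that give rise to these miRNAs lie at several places in the genome (RefSeq, GRCm38.p6). On chromosome 13, let-7a-1 (chr13:48538179-48538272), let-7f-1 (chr13:48537829-48537917) and let-7d (chr13:48536012-48536114) sit on the minus strand in 1 cluster outside any other annotated gene span. let-7b (chr15:85707319-85707403) and let-7c-2 (chr15:85706603-85706697) lie 621 bases apart within the span of the long noncoding RNA gene Lncppara. let-7c-1 (chr16:77599657-77599750) is 656 bases from the miR-99a hairpin. let-7e (chr17:17830352-17830444), within the span of Spaca6, is 94 bases from miR-99b and 367 bases from miR-125a. let-7a-2 (chr9:41536716-41536811) is in the span of Mir100hg, while let-7g (chr9:106178840-106178927) is in that of Wdr82. let-7f-2 (chrX:151912346-151912428) and miR-98 (chrX:151913214-151913321) are 785 bases apart within the span of Huwe1, and let-7i (chr10:122985640-122985724) stands alone. The table used gives gene spans without exons. The mature let-7a, let-7c and let-7f each come from a pair of hairpins, and an array of mature miRNAs cannot tell these sources apart.

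All 9 members were well above background on all 12 arrays, with 2 probes of 10 spots each and no saturated spot. Their signals, in arbitrary units, ran from 30.8 to 1596.6. miR-98 was the dim member, at 65.6 or less on every array, and the others were at 140.3 or more. For comparison between arrays each signal was scaled to its array and put on a log2 scale, and this is called the level below. The scale was the 75th percentile of the signals of 82 miRNAs, those well above background on every array. The percentile was lowest for KO 24 h replicate 1, at 203.5, and highest for untreated KO replicate 2, at 791.2, and 92 to 164 mouse miRNAs per array were well above background. Fibroblast markers checked the cell type: 4 of 6 (miR-21, miR-199a-3p, miR-199a-5p and miR-214) were well above background on all arrays, miR-143 was so on 10 and miR-145 on 0, while the 7 epithelial and 4 neural markers were so on 0 arrays. Of the 4 muscle markers miR-206 was so on 2 arrays, of the 7 blood and endothelial markers miR-126-3p was so on 1, and of the 7 pluripotency markers miR-294 was so on 1. The 4 untreated arrays lay on 1 slide and the 8 tunicamycin arrays on the other, so the slide and the treatment cannot be told apart. The arrays were scanned on 4 days, the untreated arrays on days 1 and 2 and the tunicamycin arrays on days 3 and 4. Scan day and treatment thus cannot be told apart, and the replicates of each group were scanned on different days. WT arrays lay in row 1 and KO arrays in row 2 of each slide, so genotype and row cannot be told apart either.

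The replicates of KO at 24 h lay far apart. In that group let-7i was at 1.24 in replicate 1 and 0.23 in replicate 2, let-7d at 0.71 and -0.06, and let-7a at 1.55 and 0.81. The SD pooled over the 9 members was 0.397 in that group and 0.0777 to 0.189 in the other 5. The replicates also differed in signal, with 75th percentiles of 203.5 and 566.3. All groups share 1 estimate of the spread, so these arrays bear on every test, and the text says where leaving out 1 of them moved a call. In comparisons that do not use KO at 24 h, leaving out 1 or the other must give the same result.

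Differences below are log2 differences of level ± standard error (n = 2 arrays a group), fitted with limma over all 6 groups, and adjusted p is adjusted over the 145 tested miRNAs. A member is said to have risen or fallen where adjusted p was under 0.05. The series describes the arrays of a group as independent experiments, but nothing says that the cells came from separate animals. The spread behind each p may thus lack the variation between animals. It pools 6 groups of unequal spread: the SD over all tested miRNAs was 0.152 in untreated WT, 0.128 in untreated KO and between 0.512 and 1.22 under tunicamycin.

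**Figure D1:**
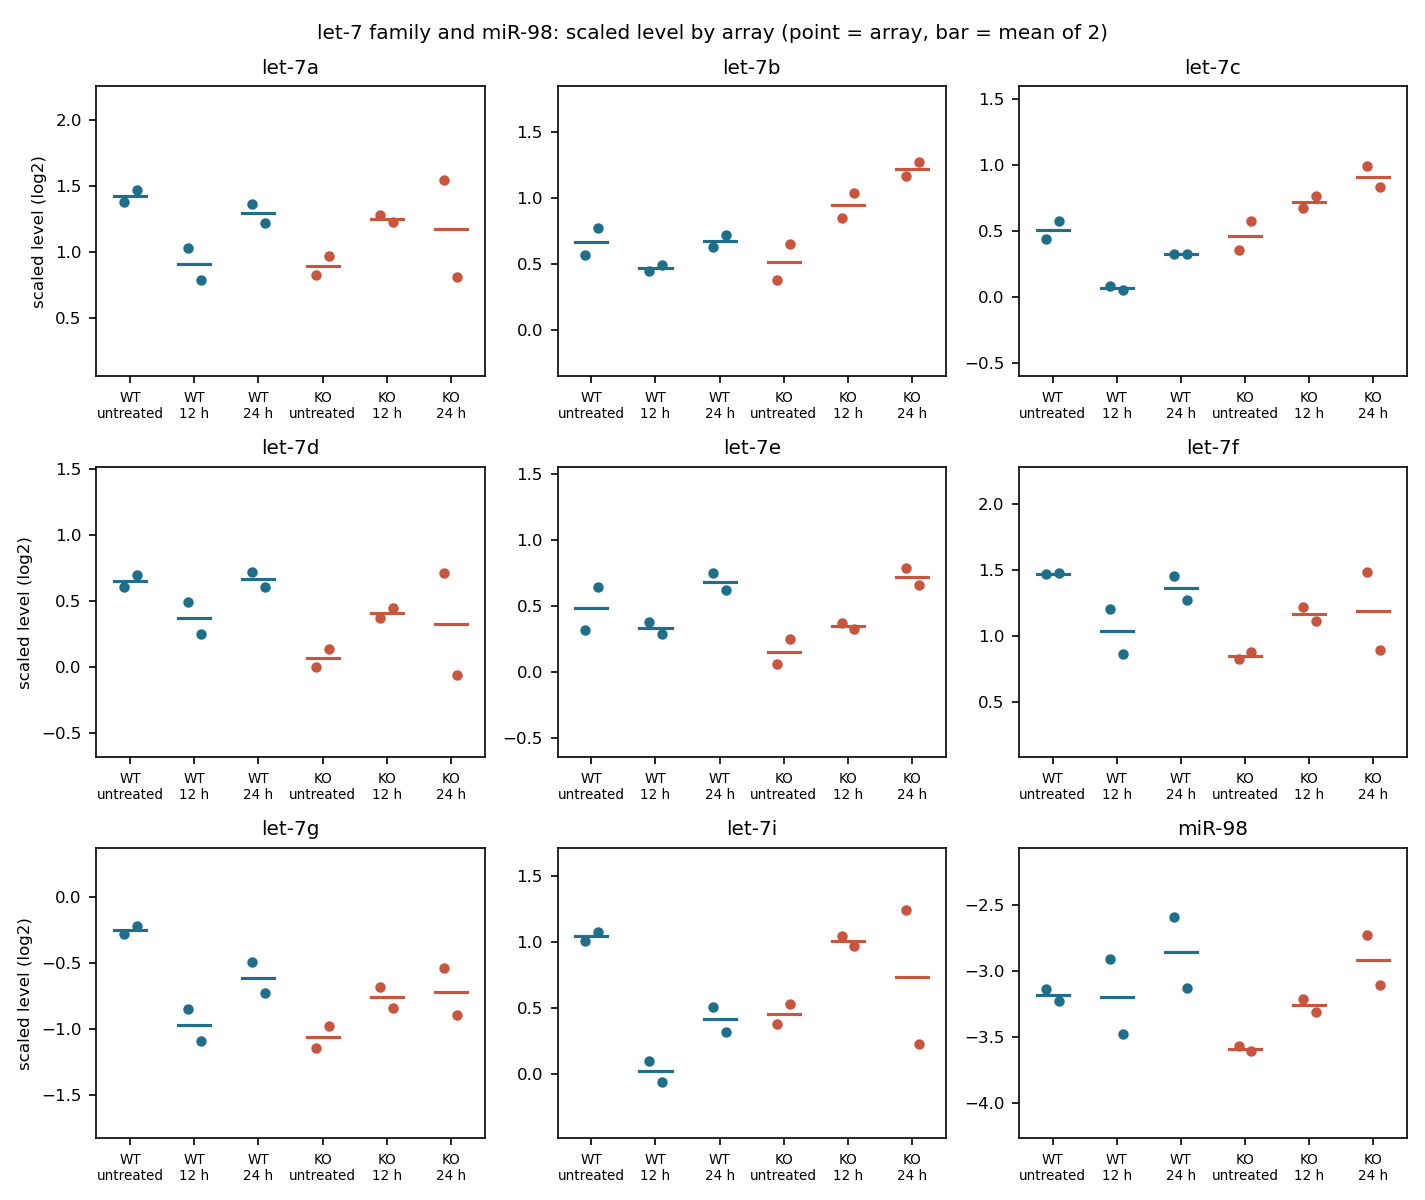
Level of each of the 9 members (log2 of signal over the array's 75th percentile, vertical axis, 1 panel per miRNA with its own offset and the same span) in the 6 groups, with WT in blue and KO in red. Points are arrays and bars are means of 2. let-7i in WT goes from 1.01 and 1.08 untreated to 0.10 and -0.06 at 12 h, and the 2 KO arrays at 24 h lie far apart for let-7a, let-7d, let-7f and let-7i.

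Tunicamycin for 12 h in WT cells was compared with untreated WT cells to see how the family responds when ATF4 is present. let-7c, let-7g and let-7i fell, and the other 6 members did not pass the test. let-7i had the largest difference of the 9. It was at 1.01 and 1.08 in untreated WT and at 0.10 and -0.06 after 12 h, so the arrays of the groups did not overlap. It fell by 1.02 ± 0.29 on the log2 scale (limma adjusted p = 0.0332), a 2.03-fold decrease, and ranked the 20th lowest of the 145 tested miRNAs.

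let-7g went from -0.28 and -0.22 to -0.85 and -1.09, and let-7c from 0.44 and 0.57 to 0.08 and 0.05. In both the treated arrays lay below the untreated ones. let-7g fell by 0.72 ± 0.16 (limma adjusted p = 0.0143) and let-7c by 0.44 ± 0.10 (limma adjusted p = 0.0180). The probes of let-7i gave nearly the same difference, -1.05 and -1.01.

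Of the 9 members, 3 were called lower, where 30.3% of all tested miRNAs were. The arrays of 7 members did not overlap and were lower after treatment, against 53.8% of all tested. The median of the members was -0.43 and that of all tested miRNAs -0.32, a gap of -0.11. The members' median was 0.20 with quantile normalization, where 6 members lay above 0, and -0.14 with median scaling. The members that did not pass included let-7a (1.38 and 1.47 untreated, 1.03 and 0.79 at 12 h), let-7f (1.47 and 1.48, then 1.21 and 0.87) and let-7d (0.61 and 0.70, then 0.49 and 0.25). Their arrays were lower too and did not overlap. let-7b was at 0.57 and 0.77 untreated and at 0.45 and 0.49 after 12 h, a smaller gap. let-7e (0.32 and 0.65, then 0.38 and 0.29) and miR-98 (-3.14 and -3.23, then -2.91 and -3.48) overlapped, and the difference of miR-98 was -0.01 ± 0.24.

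The 3 differences were negative under every alternative processing tried, but changes of filter, block or groups in the fit could not alter their size. That of let-7c was -0.15 with median scaling and -0.02 ± 0.14 when scaled to the family mean, described below. The calls were not stable, as 0 members passed with median or quantile scaling. All calls were lost without replicate 2 of untreated WT or of WT 12 h, and some without replicate 1 of either. More members passed without 1 or the other KO 24 h array, as did more of all tested miRNAs. Among the omissions of 1 array, those of the KO 24 h arrays were the only ones that kept the let-7i call. It was also kept with no scaling, in a fit of the compared groups alone, and with replicate number or scan day as a block. The rest of the 6 of 16 processing alternatives that kept it also left out a KO 24 h array.

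At 24 h in WT cells, 0 of 9 members passed the limma test, where 15.2% of all tested miRNAs were called. At an unadjusted p under 0.05 there were 0 members, against 50 of the 145 tested miRNAs. let-7i was at 0.51 and 0.32 and let-7g at -0.49 and -0.73. Both stayed below their untreated arrays, with differences of -0.63 ± 0.29 (limma adjusted p = 0.177) and -0.36 ± 0.16 (limma adjusted p = 0.157). let-7a (1.37 and 1.22), let-7f (1.46 and 1.28) and let-7c (0.32 and 0.32) were also below their untreated arrays, by 0.19 or less on average.

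The arrays of 5 members were lower without overlap, against 52.4% of all tested. miR-98 was the 1 member higher without overlap, at -2.59 and -3.13, against 17.9% of all tested. let-7b (0.63 and 0.72), let-7d (0.72 and 0.61) and let-7e (0.75 and 0.62) overlapped their untreated arrays. The median of the members was -0.10, and that of all tested miRNAs -0.17. The members' median was 0.19 with quantile normalization, 0.11 when scaled to the 75th percentile of all miRNAs and -0.93 with no scaling. Without 1 or the other KO 24 h array a member passed, as did more of all tested miRNAs.

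In KO cells the 12 h response was compared in the same way, to see the family's response without ATF4. No member passed the limma test (0 of 9), where 1.38% of all tested miRNAs were called in either direction. At an unadjusted p under 0.05 there were 2 members, let-7b and let-7c, against 21 of the 145 tested miRNAs. On these levels both treated arrays lay above both untreated arrays for 9 of 9 members, against 31.0% of all tested miRNAs. The differences ran from 0.19 to 0.56, with a median of 0.33 against 0.06 over all tested. This direction depended on how arrays were scaled: the members' median was -0.44 when scaled to the 75th percentile of all miRNAs and -0.36 with no scaling.

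let-7i was at 0.38 and 0.53 in untreated KO and at 1.05 and 0.97 after 12 h, a difference of 0.56 ± 0.29 (limma adjusted p = 0.472). let-7b went from 0.38 and 0.65 to 0.85 and 1.04, and let-7c from 0.35 and 0.57 to 0.67 and 0.76. In each the treated arrays were the higher ones. let-7a (0.83 and 0.97, then 1.28 and 1.23), let-7f (0.83 and 0.88, then 1.22 and 1.12) and let-7d (0.00 and 0.14, then 0.37 and 0.45) lay apart in the same way. let-7g went from -1.14 and -0.98 to -0.68 and -0.84, let-7e from 0.06 and 0.25 to 0.37 and 0.33, and miR-98 from -3.57 and -3.61 to -3.21 and -3.31. The narrowest separation was in let-7e. Without 1 or the other KO 24 h array a member passed, as did more of all tested miRNAs.

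At 24 h in KO cells, let-7b rose and the other 8 members did not pass. let-7b was at 0.38 and 0.65 untreated and at 1.17 and 1.27 after 24 h, with no overlap. It rose by 0.71 ± 0.13 (limma adjusted p = 0.0337), a 1.63-fold increase, except that it was -0.16 when scaled to the 75th percentile of all miRNAs and -0.44 with no scaling. Of all tested miRNAs 1.38% were called higher.

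let-7c (0.99 and 0.83) and let-7e (0.79 and 0.66) also lay above their untreated arrays, with differences of 0.45 ± 0.10 and 0.57 ± 0.13 (limma adjusted p = 0.0697 for each). The arrays of 6 members were higher without overlap, against 30.3% of all tested. let-7f (1.49 and 0.90), let-7g (-0.54 and -0.89) and miR-98 (-2.73 and -3.11) were among these 6. let-7a, let-7d and let-7i overlapped, with replicate 2 the lower array in each. The median was 0.35 for the members and 0.19 for all tested. The members' median was -0.52 when scaled to the 75th percentile of all miRNAs and -0.80 with no scaling, with 9 of 9 members below 0 in each.

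More members passed without KO 24 h replicate 2, as did more of all tested miRNAs. More members also passed without 1 or the other untreated WT array, where no more of all tested miRNAs did. No member passed without any 1 of the KO untreated, KO 12 h, WT 12 h or WT 24 h arrays. The let-7b call itself was lost without 9 of the 12 arrays, KO 24 h replicate 2 among them.

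Untreated KO cells were compared with untreated WT cells to see whether the family differs before stress. let-7g was lower in KO. It was at -0.28 and -0.22 in WT and at -1.14 and -0.98 in KO, with no overlap. The difference was -0.81 ± 0.16 (limma adjusted p = 0.0103), a 1.76-fold lower level. It was negative under every alternative, from -0.89 to -0.23, though several alternatives could not alter its size. Of all tested miRNAs 25.5% were called lower.

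The other 8 members did not pass. let-7f was at 1.47 and 1.48 in WT and at 0.83 and 0.88 in KO, which gave -0.62 ± 0.20 (limma adjusted p = 0.0514). let-7d (0.61 and 0.70 in WT, 0.00 and 0.14 in KO), let-7a (1.38 and 1.47, then 0.83 and 0.97) and let-7i (1.01 and 1.08, then 0.38 and 0.53) were lower in both KO arrays. For all 4 of these members the arrays of a genotype lay closer to each other than to those of the other genotype.

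let-7e (0.32 and 0.65 in WT, 0.06 and 0.25 in KO) and miR-98 (-3.14 and -3.23, then -3.57 and -3.61) lay lower without overlap as well. let-7b (0.57 and 0.77, then 0.38 and 0.65) and let-7c (0.44 and 0.57, then 0.35 and 0.57) overlapped. The arrays of 7 members were thus lower without overlap, against 66.9% of all tested, and the medians were -0.53 for the members and -0.49 for all tested. The medians of both moved together with the scaling, to -0.11 and -0.07 with quantile normalization, and to 0.05 and 0.00 when the 75th percentile was taken over all miRNAs.

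In a fit of the untreated groups alone 6 members passed, all lower in KO. In that fit 73 of the 145 tested miRNAs were called lower and 17 higher. The let-7g call was lost without 1 or the other untreated WT array or untreated KO replicate 1, with 0 members called in each case. More members passed without 1 or the other KO 24 h or WT 12 h array, as did more of all tested miRNAs.

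**Figure D2:**
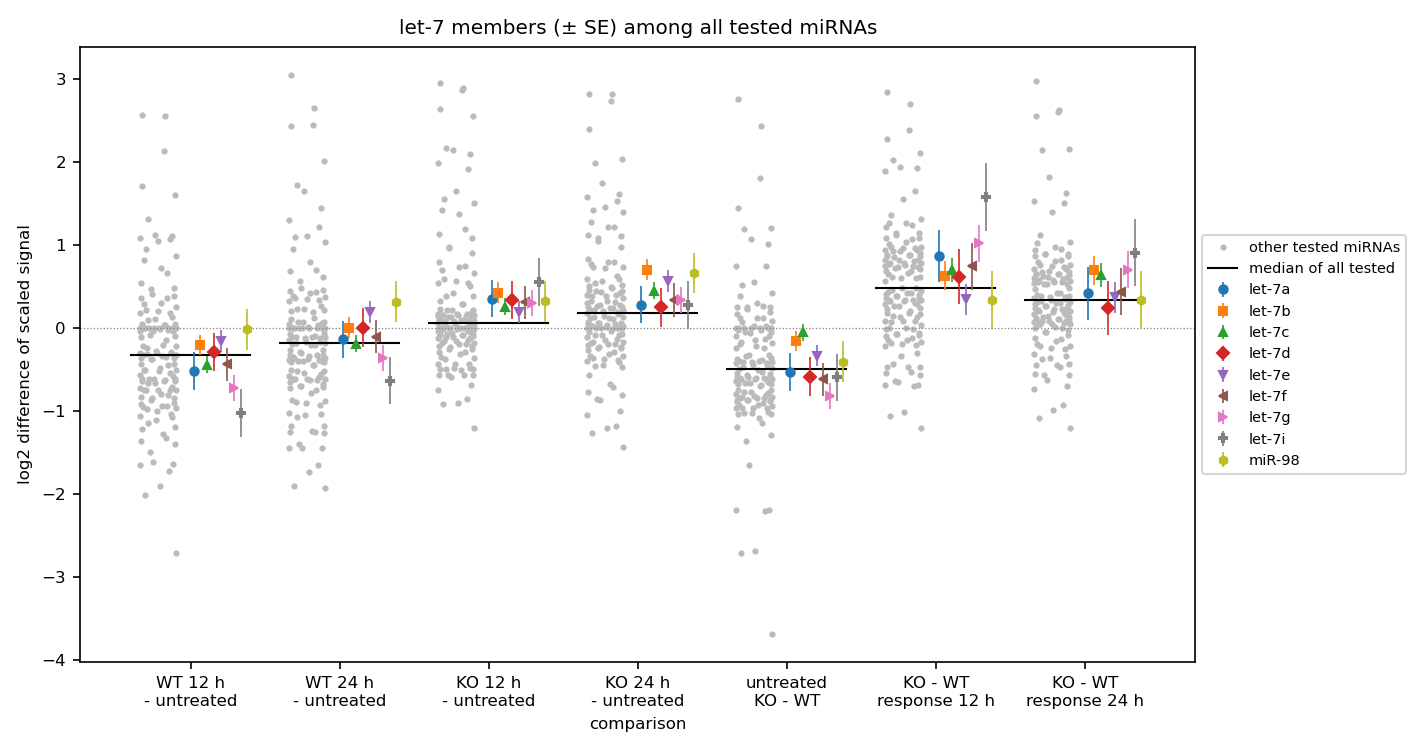
Log2 difference of level (vertical axis) in 7 comparisons: the 9 members as coloured symbols with standard errors, the other 136 tested miRNAs as grey points, and the median of all 145 as a black line. let-7i lies lowest of the members in WT at 12 h (-1.02) and highest in the KO minus WT response at 12 h (1.58), and most members sit near the black line.

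The series' design text names miRNAs whose 12 h response needs ATF4 as what was sought, which is the difference between the genotypes in that response. The KO response exceeded the WT response for let-7b, let-7c, let-7g and let-7i, and the other 5 members did not pass. For let-7i the WT level fell by 1.02 while the KO difference was 0.56, so the responses differed by 1.58 ± 0.41 (limma adjusted p = 0.0346). It ranked 11th from the highest among 145 tested miRNAs.

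For let-7g the responses were -0.72 in WT and 0.30 in KO, a difference of 1.02 ± 0.22 (limma adjusted p = 0.0189). For let-7c they were -0.44 and 0.26, a difference of 0.70 ± 0.15 (limma adjusted p = 0.0181). For let-7b they were -0.20 and 0.43, a difference of 0.63 ± 0.18 (limma adjusted p = 0.0419). The differences of let-7i and let-7g were positive under every alternative, from 0.68 to 1.66 and from 0.12 to 1.14, though several alternatives could not alter their size. That of let-7b was -0.03 with quantile normalization. Under scaling to the 75th percentile of all miRNAs it was -0.27, and that of let-7c was -0.20. Scaled to the mean of the family, described below, they were -0.13 and -0.06.

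The 4 members called higher stand against 20.7% of all tested miRNAs called higher. The members' median was 0.70 and that of all tested 0.48. The members' median was -0.20 when scaled to the 75th percentile of all miRNAs, where 7 of 9 lay below 0, and 0.20 with median scaling or no scaling. The other differences were 0.87 for let-7a, 0.75 for let-7f, 0.62 for let-7d, 0.35 for let-7e and 0.34 for miR-98, none of them past the threshold. Since the untreated KO arrays enter this difference, the untreated difference between the genotypes is part of it for every member. That was -0.81 for let-7g, the only member that passed, and from -0.62 to -0.05 for the others, with let-7i at -0.59.

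0 members passed with median, quantile or no scaling, or in the deposited table. All calls were lost without WT 12 h replicate 2, untreated KO replicate 1 or KO 12 h replicate 2. Some were lost without any 1 of the other arrays outside KO 24 h. More members passed without 1 or the other KO 24 h array, as did more of all tested miRNAs. Among the omissions of 1 array, those of the KO 24 h arrays were again the only ones that kept the let-7i call. It was also kept in 6 of 17 processing alternatives, among them those scaled to the family mean that also left out a KO 24 h array.

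At 24 h the response difference passed for let-7c alone, where 7.59% of all tested miRNAs were called higher. Its responses were -0.19 in WT and 0.45 in KO, a difference of 0.64 ± 0.15 (limma adjusted p = 0.0417), which turned to -0.43 when scaled to the 75th percentile of all miRNAs. let-7b followed with 0.70 ± 0.18 (limma adjusted p = 0.0555) and let-7g with 0.71 ± 0.22 (limma adjusted p = 0.0828). let-7i had the largest value, 0.91 ± 0.41 (limma adjusted p = 0.227). It includes the KO 24 h arrays at 1.24 and 0.23, and was 0.41 without replicate 1 of that group and 1.41 without replicate 2. When scaled to the 75th percentile of all miRNAs let-7i was at -0.16, let-7b at -0.37 and let-7g at -0.36. These values did not keep the direction seen with the scaling used here.

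The medians at 24 h were 0.44 for the members and 0.34 for all tested. The members' median was -0.63 when scaled to the 75th percentile of all miRNAs, with 9 of 9 below 0, and -0.03 with quantile normalization. More members passed without 1 or the other KO 24 h array, as did more of all tested miRNAs. No member passed when any other array was left out, except untreated KO replicate 2.

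**Figure D3:**
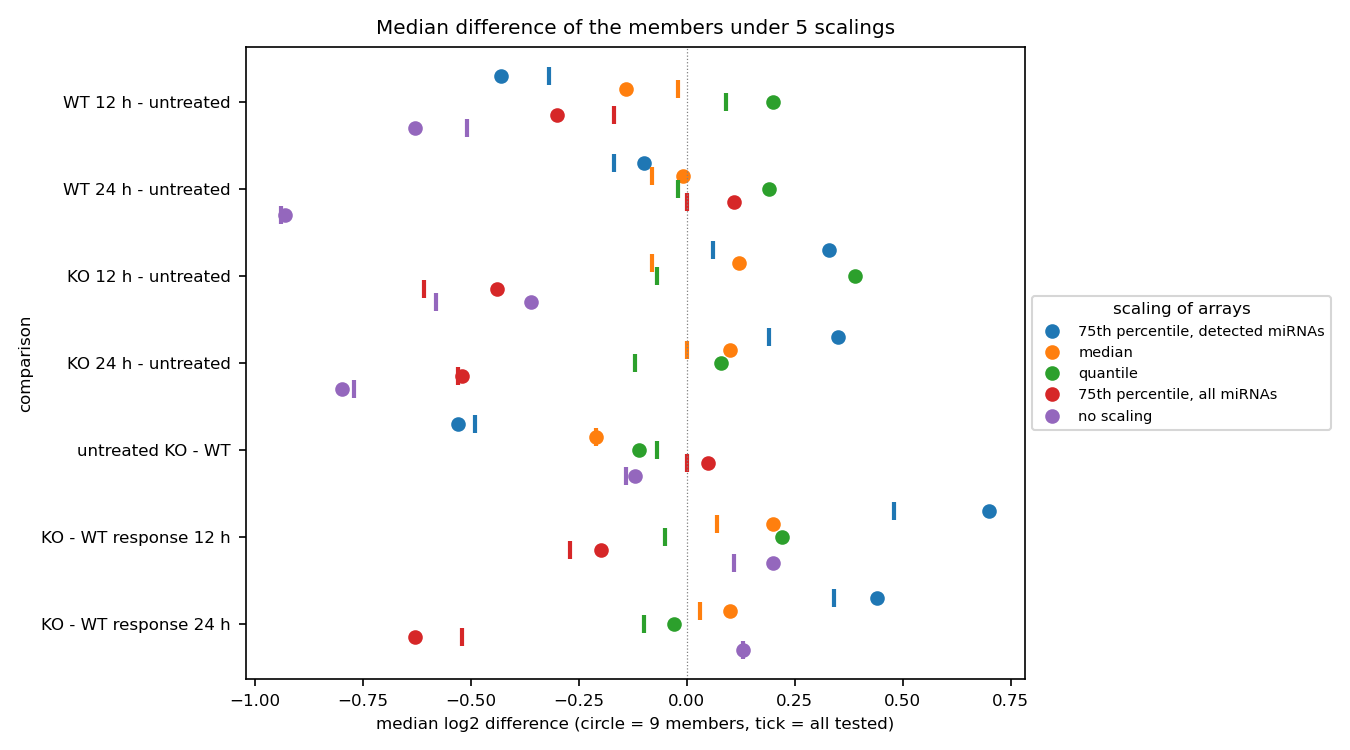
Median log2 difference (horizontal axis) in the 7 comparisons (rows) under 5 ways to scale the arrays (colours), with circles for the 9 members and ticks for all tested miRNAs. In most rows the circle and the tick of a colour move together, as in untreated KO minus WT, where they run from -0.53 and -0.49 to 0.05 and 0.00.

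Because the shared shift depends on the scaling, the members were also compared with each other on the same array, where the scaling cancels. The ratio of let-7i to let-7a was chosen after the levels had been seen, and only its change between arrays is read. It was 0.772 and 0.763 in untreated WT, 0.523 and 0.556 in WT at 12 h, and 0.554 and 0.536 in WT at 24 h. In KO it was 0.731 and 0.739 untreated, 0.857 and 0.835 at 12 h, and 0.804 and 0.668 at 24 h. The 4 tunicamycin-treated WT arrays were thus lower than all other 8 arrays, and the ratio was not lower in KO at 12 h.

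let-7g over let-7a behaved differently. The ratio was 0.316 and 0.311 in untreated WT, 0.272 and 0.272 at 12 h and 0.276 and 0.260 at 24 h. In KO it was 0.255 and 0.260 untreated, 0.259 and 0.238 at 12 h, and 0.235 and 0.306 at 24 h. The untreated WT arrays were the highest of the 12. let-7f over let-7a, a pair from the chromosome 13 cluster, kept between 0.925 and 1.13 on all arrays.

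**Figure D4:**
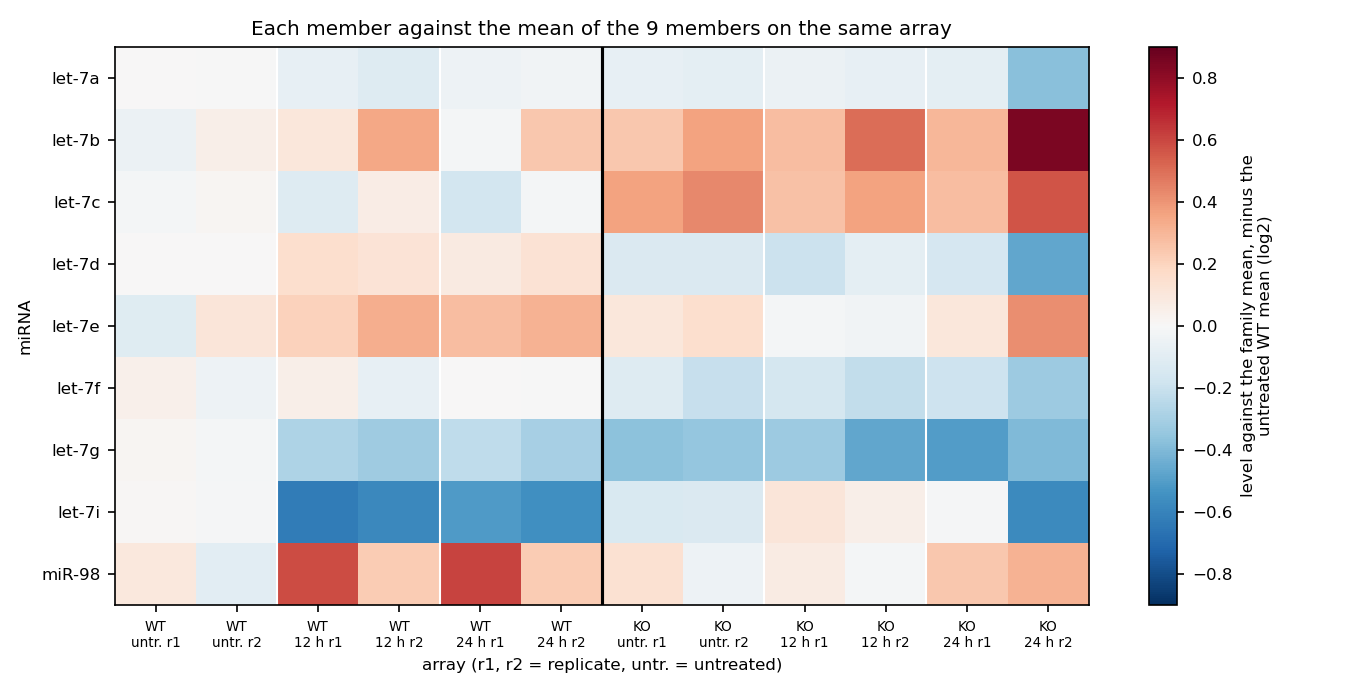
Level of each member (rows) relative to the mean of the 9 members on the same array, minus the mean of the 2 untreated WT arrays (log2, colour scale), for the 12 arrays (columns; the black line separates WT from KO). let-7i is blue on the 4 tunicamycin-treated WT arrays and on KO 24 h replicate 2, let-7c is red on the KO arrays, and let-7g is blue on every array other than untreated WT.

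The same comparison was made for each member against the mean of the 9 members on its array. let-7i stood at 0.74 and 0.72 in untreated WT, 0.10 and 0.15 at 12 h and 0.22 and 0.18 at 24 h. In KO it stood at 0.59 and 0.60 untreated, 0.84 and 0.78 at 12 h, and 0.72 and 0.16 at 24 h. With 1 exception, KO 24 h replicate 2, let-7i was low within the family only in treated WT cells.

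Tested with limma on levels scaled to the family mean, a choice made after the data were seen, let-7i differed by -0.60 ± 0.17 in WT at 12 h (adjusted p = 0.0570) and by -0.53 ± 0.17 at 24 h (adjusted p = 0.0731). The KO response exceeded the WT response by 0.82 ± 0.24 at 12 h (adjusted p = 0.0710). None of these passed with all 12 arrays. With KO 24 h replicate 2 left out, the values were -0.60 ± 0.07 (limma adjusted p = 0.00507), -0.53 ± 0.07 (limma adjusted p = 0.00340) and 0.82 ± 0.10 (limma adjusted p = 0.00385). With replicate 1 left out instead these 3 values were the same, which the fit fixes in advance and which is no second check. Either omission leaves KO 24 h with 1 array, which adds nothing to the estimate of the spread. The sizes could not differ from those of all arrays, as these 3 comparisons use no KO 24 h array, and the errors were smaller. The choice of array decided the KO values at 24 h. The response difference at 24 h was 0.66 ± 0.11 (limma adjusted p = 0.0159) without replicate 2 and 0.10 ± 0.11 (limma adjusted p = 0.621) without replicate 1, where let-7i fell in KO at 24 h as well, by 0.43 ± 0.09 (limma adjusted p = 0.0141). Over all alternatives for the let-7i differences at 12 h, adjusted p ran from 0.000729 to 1.00 in WT and from 0.000705 to 1.00 for the response difference, at 24 h in WT from 0.00202 to 1.00, and for the response difference at 24 h from 0.00218 to 1.00.

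let-7c stood at 0.03 to 0.26 relative to the family mean on the 6 WT arrays and at 0.46 to 0.76 on the 6 KO arrays, with no overlap. In untreated cells the difference was 0.40 ± 0.14 (limma adjusted p = 0.0860; over all alternatives for this comparison from 0.0248 to 1.00). let-7g stood at -0.54 and -0.58 in untreated WT and at -0.93 and -0.91 in untreated KO, a difference of -0.36 ± 0.10 (limma adjusted p = 0.0444; over all alternatives for this comparison from 0.00296 to 1.00). let-7f was at 1.08 to 1.21 on the WT arrays and at 0.83 to 1.04 on the KO arrays, and in untreated cells differed by -0.17 ± 0.11 (limma adjusted p = 0.407). Untreated let-7b differed by 0.30 ± 0.20 (limma adjusted p = 0.427) and let-7d by -0.13 ± 0.13 (limma adjusted p = 0.595). So within the family let-7g was relatively lower in untreated KO than in untreated WT cells. It was the only member that passed this test, and the differences of let-7b, let-7c, let-7d and let-7f did not pass.

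The order of the 6 groups differed between members. let-7i was highest in untreated WT (mean 1.04 ± 0.05 SD, n = 2) and in KO at 12 h (1.01 ± 0.06), whose arrays overlapped, and lowest in WT at 12 h (0.02 ± 0.11), apart from the next group. let-7g was highest in untreated WT (-0.25 ± 0.05), apart from all others, and lowest in untreated KO (-1.06 ± 0.11), which overlapped WT at 12 h (-0.97 ± 0.17). let-7b and let-7c were highest in KO at 24 h (1.22 ± 0.07 and 0.91 ± 0.11), then in KO at 12 h (0.95 ± 0.14 and 0.72 ± 0.06), with no overlap between these neighbours.

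let-7a and let-7f were highest in untreated WT (1.43 ± 0.06 and 1.47 ± 0.01) and lowest in untreated KO (0.90 ± 0.09 and 0.86 ± 0.03), where the 4 groups from rank 2 to rank 5 each overlapped the next. let-7d was highest in WT at 24 h and untreated WT, which overlapped, and lowest in untreated KO (0.07 ± 0.10). let-7e and miR-98 were lowest in untreated KO (0.16 ± 0.14 and -3.59 ± 0.03), and their highest groups, at 24 h in KO and WT, overlapped each other.

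Likeness between members was measured as Pearson's r of their levels over the 12 arrays, as a description. The arrays share their scaling and the 9 members their seed and family sequence, and all 36 pairs ran from 0.00 to 0.94. let-7a and let-7f, which share a cluster and differ at 1 base, had r of 0.94, as did let-7d and let-7f. let-7g was nearest to let-7f (0.92), and let-7b and let-7c were nearest to each other (0.88). let-7i was nearest to let-7a (0.82), with an SD of the log2 ratio over arrays of 0.27 against 0.09 for let-7a and let-7f. let-7e and miR-98 were nearest to each other (0.79). The 5 tested miRNAs outside the family whose levels were most like the members' mean were miR-25 (0.82), miR-301a (0.82), miR-15b (0.75), miR-151-5p (0.74) and miR-872 (0.71).

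The neighbours of the let-7 hairpins give a view of the shared loci. miR-125a-5p, encoded beside let-7e, was at 0.00 and -0.15 in untreated WT and at -0.86 and -0.77 at 12 h. It fell by 0.74 ± 0.12 (limma adjusted p = 0.00543), against a median of -0.32 over all tested. It was lower under all 28 alternatives, from -0.93 to -0.32, though several of them could not alter its size. let-7e at the same locus had -0.15 ± 0.13 and did not pass. miR-125a-5p was also lower in untreated KO than in untreated WT (-0.65 ± 0.12, limma adjusted p = 0.00953), and as little as -0.08 over the alternatives. Its 12 h responses differed by 0.69 ± 0.17 (limma adjusted p = 0.0306), which changed sign in 4 of 29 alternatives and was as low as -0.21. The medians of all tested miRNAs were -0.49 and 0.48 in these comparisons. The difference between miR-125a-5p and let-7e was not tested.

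miR-99b, on the other side of let-7e, was lower in untreated KO (-0.63 ± 0.17, limma adjusted p = 0.0256), but 0.44 with the normexp background correction. miR-125b-5p, encoded 45114 bases from let-7a-2 and 46522 bases from let-7c-1, was lower as well (-0.65 ± 0.20, limma adjusted p = 0.0447), against a median of -0.49 over all tested. Neither passed in the other 6 comparisons. miR-100, 5211 bases from let-7a-2, passed in 0 of 7 comparisons, with differences from -0.47 to 0.37. miR-99a, beside let-7c-1, was well above background on 7 arrays and passed in 0 comparisons. The 7 passenger strands on the array come from the other arm of the hairpins. None was well above background on both arrays of a group, so none was tested. let-7b* was well above background on 3 arrays, let-7d* on 4, let-7g* on 1, and let-7a*, let-7c-1*, let-7f* and let-7i* on 0. The arrays with such a signal were all replicate 2 arrays under tunicamycin. let-7d* had a signal of 196.4 in WT 12 h replicate 2 and 4.3 in replicate 1. Why the replicates differed was not tested.

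The probes of each member were compared as a check within the array. Over 63 pairs of probe differences (9 members in 7 comparisons) the median gap was 0.11 and the largest 0.34, for let-7g in KO at 24 h. The sign was the same in 59 pairs. The other 4 pairs were of let-7b and let-7d in WT at 24 h, let-7c in untreated KO against WT and miR-98 in WT at 12 h, all with differences near 0.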

How the data were processed

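Cy3-labelled total RNA was hybridised to Agilent 1-colour miRNA arrays and read with Agilent Feature Extraction 10.7.1.1, per the submitters' processing notes. The deposited processed signal is an intensity in arbitrary units, per the file headers, background-subtracted and not scaled between arrays. Values of the deposited table are log2 and equalled the log2 of the software's total gene signal within 0.001. Other deposited columns, per the file headers, are flags of 0 or 1.

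Control spots and outlier-flagged spots were left out, spots of a probe were averaged, and probes of a miRNA were summed. Signals were divided by the 75th percentile over 82 miRNAs, floored at 0.0328 (-4.93 as log2, below every member) and logged. The 145 mouse miRNAs well above background on each array of at least 1 group were tested in limma 3.58.1 under R 4.3.3 (6 residual degrees of freedom, prior 1.02; Benjamini-Hochberg adjusted p under 0.05). Named miRNAs are the 9 members, any that passed with full statistics, their passenger strands, cluster partners, miR-202-3p, and the 5 others with the highest r. The members, lists and tests were chosen with earlier results of these data known. The fit was tested on simulated data with independent normal noise and 1 SD per miRNA in all groups. Those data lack the unequal spread of the groups and the deviations shared between groups seen here. The simulation therefore does not show how the fit performs under them. Alternatives covered background correction, measure, scaling, floor, filter, spread, replicate block, scan day and each array left out. The number of arrays limits the precision.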

Additional observations from a re-analysis of the deposited data

Results flagged for a closer look

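In 5 cases the KO and WT responses to tunicamycin differed in limma's test of the difference itself. At 12 h the KO response exceeded the WT response by 1.58 for let-7i, 1.02 for let-7g, 0.70 for let-7c and 0.63 for let-7b on the log2 scale. At 24 h it did so by 0.64 for let-7c. The let-7i and let-7g differences at 12 h were positive under all 29 alternatives, from 0.68 to 1.66 and from 0.12 to 1.14. Those of let-7b and let-7c changed sign in 5 and 4 of them. Changes of filter, block or groups in the fit could not alter these 12 h values. Nor could leaving out a WT 24 h or KO 24 h array. With 2 arrays a group, no test for outlying arrays was made.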

How the results depend on the processing

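The number of members called depended on the processing in every comparison with a call. The counts were 3 in WT at 12 h, 1 in KO at 24 h, 1 in untreated KO against WT, and 4 and 1 for the response differences at 12 h and 24 h. They were 0 in these 5 with normexp (run on median signals, as the files hold no mean signal), the total gene signal, the deposited table, median scaling, quantile normalization, the 75th percentile over all miRNAs, and no filter. With no scaling the counts were 1 in WT at 12 h, 5 at 24 h, 3 in KO at 24 h (all lower, so reversed) and 0 in the other 4 comparisons. Of the 145 tested miRNAs 36 were then called lower in WT at 12 h, 63 at 24 h and 55 in KO at 24 h. With only the compared groups in the fit the counts of members were 1 in WT at 12 h, 1 at 24 h and 0 in KO at 24 h. They were 6 in untreated KO against WT, where 73 of the 145 tested miRNAs were called lower, and 0 for the response difference at 24 h. The higher floor gave 0 in KO at 24 h and 2 for the response difference at 12 h. Scan day as a random term, and as a fixed term where that could be fitted, gave 3 in untreated KO against WT and 3 for the response difference at 24 h. With 1 array left out the counts ran from 0 to 5 in WT at 12 h, 0 to 1 in WT at 24 h and in KO at 12 h, 0 to 4 in KO at 24 h, 0 to 5 in untreated KO against WT, and 0 to 7 and 0 to 6 for the response differences. A group left with 1 array is assumed to vary like the others. The cause of these changes was not tested.

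Among single members, let-7b in KO at 24 h turned to -0.16 (75th percentile over all miRNAs) and -0.44 (no scaling). Its response difference at 12 h turned to -0.27 (75th percentile over all miRNAs) and -0.03 (quantile), and that of let-7c to -0.20 at 12 h and -0.43 at 24 h (75th percentile over all miRNAs).

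A further 4 alternatives were added after seeing the data. normexp without spots of outlying background gave 0 in 4 of the 5 comparisons and 1 in untreated KO against WT. Scaling to the family mean did the same, with response differences at 12 h of -0.13 for let-7b and -0.06 for let-7c. With KO 24 h replicate 2 also left out, let-7b in KO at 24 h was 0.00. The response differences of let-7b and let-7c at 12 h were -0.13 and -0.06, and that of let-7c at 24 h was -0.03. With replicate 1 left out instead, let-7b and let-7c at 12 h were again -0.13 and -0.06. In KO at 24 h let-7a, let-7d and let-7i were then -0.29, -0.34 and -0.43, while let-7b was 0.55. The calls of the members changed in both fits, as did those over all tested miRNAs.

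The replicate block gave 2 called members in untreated KO against WT, let-7f beside let-7g, and left the count of the other 6 comparisons the same. The member called in the response difference at 24 h was then let-7b (adjusted p = 0.0178) in place of let-7c. The numbers do not pair all arrays. Deviations from group means correlated at 0.68 to 0.95 among tunicamycin groups, 0.68 between untreated groups, and -0.54 to -0.24 between untreated and tunicamycin groups. The untreated groups shared scan days 1 and 2, and the tunicamycin groups scan days 3 and 4. The slides were shared in the same way, and whether scan day or slide is behind these correlations was not tested.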
